A study of Mus musculus with 24 samples.

Results

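The lung and the retina of untreated wildtype mice were compared gene by gene, as a baseline for a study that exposed both tissues to hyperoxia. The members are the 35817 genes listed under the same identifier in both count tables, out of 36109 in the lung table and 36595 in the retina table. The 6 libraries used are the 3 wildtype lungs and the 3 wildtype retinas kept in room air (WT-RA), out of 24 libraries in all. Room air was 21% oxygen, lungs were collected at postnatal day 15 and retinas at postnatal day 18. All WT mice were C57/B6 littermates of global GSDMD knockout (KO) mice, bred from heterozygous parents. Each library held RNA of a whole tissue from 1 mouse, and no mouse gave both tissues. The other groups served as repeats of the same comparison in mice not used for the calls: KO-RA (GSDMD knockout with a CRISPR deletion in exon 5, room air), WT-O2 and KO-O2 (85% oxygen from postnatal day 1 to 14 for lungs, 75% oxygen from day 7 to 12 followed by room air for retinas), with 3 lungs and 3 retinas each. Tissue, age and the making of the 2 tables change together in this comparison and cannot be told apart, so only large differences were read and no p-value was computed between tables. With 3 libraries against 3, an exact permutation test could not go below 0.1.

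The lung at this age is forming alveoli. Flat alveolar type 1 cells carry gas exchange, cuboidal type 2 cells make surfactant, and the airways are lined by secretory and multiciliated cells, all resting on a dense capillary bed and an elastic fiber scaffold. The retina at this age has nearly completed its layers: rods and cones turn light into a fall of cyclic GMP through transducin and a phosphodiesterase, and pass the signal over ribbon synapses to bipolar, amacrine and ganglion cells, with Mueller glia spanning the tissue. The rod fate is set by the transcription factors Crx, Nrl and Nr2e3, while Nkx2-1 and the Foxa factors set the airway and alveolar fate.

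Levels are given in TPM, a level per transcript length scaled to the same total in each library. The lung table was read as plain estimated reads and the retina table as values already divided by length, from the steps of their low values, so lung values were divided by length before the comparison. A log2 difference is the mean of log2(TPM + 0.1) over the 3 lungs minus that over the 3 retinas, so that positive values are higher in the lung, with the standard error (SE) over libraries. A gene was called when this difference was at least 10-fold and the 3 lungs did not overlap the 3 retinas. Of the 35765 genes with an annotated length, 15691 had a mean of at least 1 TPM over the 6 libraries and a transcript of at least 300 bases and entered the comparison, and 10084 were at 0 in all 6.

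Estimated counts summed to between 28763700 and 29210900 per WT-RA lung and between 27063700 and 28032300 per retina, and 14476 to 14755 and 14634 to 15049 genes reached 1 TPM. Mitochondrially encoded transcripts made up 10.3% to 11.9% of lung and 12.6% to 14.8% of retina TPM. These shares leave out the chromosome 1 pseudogenes Gm28661 and Gm29216, which were among the 10 most abundant genes of each tissue. Gm28661 had a mean of 12221.5 TPM in the lungs and 21605 TPM in the retinas, and Gm29216 14068 and 12351 TPM. Whether they took up mitochondrial reads was not tested. Lens transcripts made up 0.0220% of retina replicate 1, 4.80% of replicate 2 and 12.8% of replicate 3, so that the latter pair stood apart. The SD of the log2 ratio between replicates was 0.565 and 0.658 for retina replicate 1 against replicates 2 and 3. Between retina replicates 2 and 3 it was 0.266, within the 0.188 to 0.341 of the lungs. Y-linked transcripts summed to 0.824 to 1.14 TPM in the 3 lungs and 108 to 144 TPM in the 3 retinas, so sex also cannot be told apart from tissue here.

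The 2 tissues differed in most of the genes they shared. In 13084 of the 15691 tested genes (83.4%) the 3 lungs did not overlap the 3 retinas, 5323 of them in favor of the lung (33.9%) and 7761 of the retina (49.5%). The median SE was 0.17 on the log2 scale, while the quartiles of the difference stood at -1.45 and 1.09 around a median of -0.33. At 10-fold or more, 1605 genes were higher in the lung (10.2%) and 1593 in the retina (10.2%), of which 19 were lens genes and 1574 were not. The retinas held none of the transcript in any library for 164 of the lung genes, and the lungs held none for 109 of the retina genes. The 1605 lung genes carried 31.3% to 33.4% of all lung TPM and 0.515% to 0.617% of retina TPM, and the 1593 retina genes 22.4% to 31.1% of retina TPM and 0.363% to 0.375% of lung TPM. At the other end, 6364 tested genes (40.6%) lay within 2-fold of each other.

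The balance between the directions depended on how the tables were brought to one scale. With the libraries scaled to housekeeping genes, 2142 genes were higher in the lung and 1272 in the retina, so that 62.7% of the calls were on the lung side in place of 50.2%, and the median over all tested genes moved from -0.33 to 0.31 (0.02 with TMM scaling). The difference also changed with transcript length: it fell by 0.53 per doubling of length on the TPM scale, with a median of 0.42 in the shortest 10% of genes and -1.08 in the longest 10%, whereas with the deposited values read as CPM it moved by 0.59 the other way (medians -1.21 and 1.36). After removal of the median trend with length, the lung calls numbered 1797 and the retina calls 1384, and 91.6% of the lung calls and 85.1% of the retina calls were made again. The cause of the trend was not tested.

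**Figure D1:**
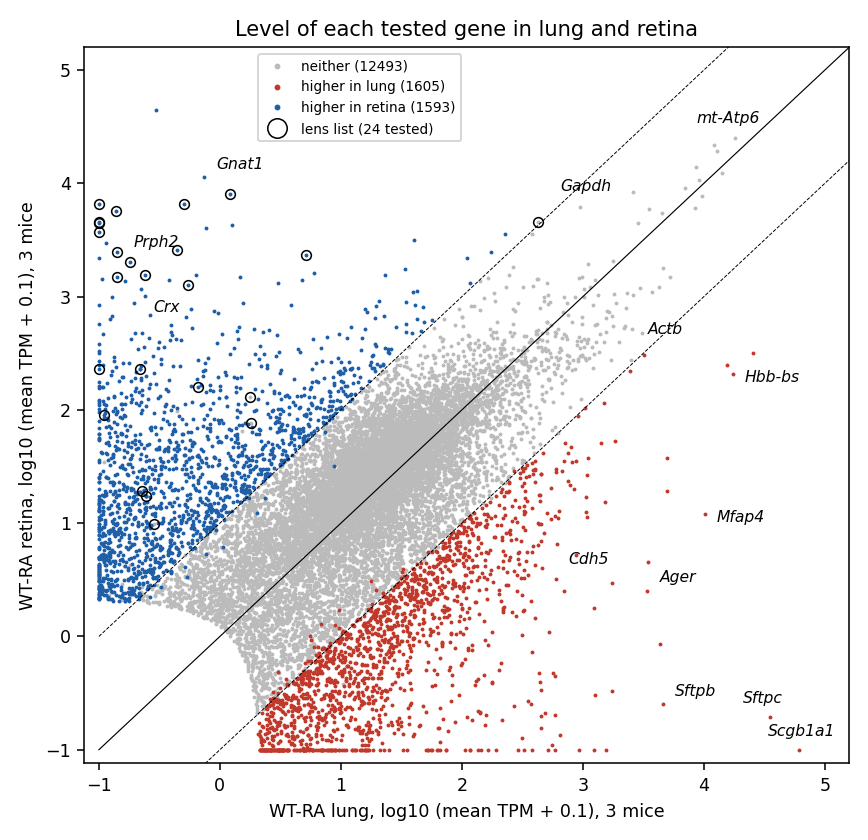
Each point is a tested gene, with its mean level over 3 WT-RA lungs on the x axis and over 3 WT-RA retinas on the y axis, both as log10 (mean TPM + 0.1), with dashed lines at a 10-fold difference and open circles on the 24 lens genes. The 1605 lung genes and the 1593 retina genes form separate wings that reach the floor of the other tissue, with Scgb1a1 and Sftpc far out in the lung wing and Gnat1 and Prph2 far out in the retina wing.

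Surfactant genes were among the largest differences. In whole-tissue RNA, fewer cells of a type and less RNA per cell cannot be told apart, here and for every list that follows. The count of called genes in each list stands beside 10.2% of all tested genes called in each direction. Of the 11 genes of alveolar type 2 cells, 8 were called higher in the lung and 0 in the retina, with a median log2 difference of 12.29 against -0.33 over all tested genes (list medians are over every member in both tables), and their summed level was 40308 to 45777 TPM in the lung and 146 to 189 TPM in the retina. Sftpc, the hydrophobic surfactant protein made only by type 2 cells in the adult lung, stood at 37084, 35169 and 33030 TPM in the 3 lungs and at 0.285, 0 and 0 TPM in the 3 retinas. Every lung was far above every retina (log2 difference 17.77, SE 0.65). Sftpb, its partner in spreading the surfactant film, stood at 4876, 4605 and 4363 TPM in the lungs and at 0.236, 0.0931 and 0.133 TPM in the retinas (log2 difference 14.19, SE 0.24). The collectin Sftpa1 stood at 1051, 1022 and 687 TPM in the lungs and was not counted in a retina, which places it at least 13869-fold higher in the lung against a floor of 3 reads per library. The phosphate transporter Slc34a2, which recovers phosphate from surfactant, was likewise absent from the counts of all 3 retinas (at least 13359-fold).

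The 3 type 2 genes that were not called had higher retina levels. Lpcat1, an acyltransferase that remodels phosphatidylcholine, stood at 156, 162 and 143 TPM in the lungs and 99.8, 132 and 108 TPM in the retinas, with no overlap but a log2 difference of 0.45 (SE 0.13). The lipid transporter Abca3 (2.13, SE 0.15) and the transcription factor Etv5 (1.09, SE 0.13) were also higher in every lung, by less than 10-fold. Abca3 passed 10-fold on CPM as deposited, at a log2 difference of 4.13.

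Airway secretory cells gave the single most abundant lung transcript. Scgb1a1, the club cell secretoglobin, stood at 67504, 60595 and 53957 TPM in the lungs and was not counted in the retinas, at least 99765-fold higher in the lung. Its relative Scgb3a2 stood at 1101, 1325 and 1297 TPM and was also at 0 in all 3 retinas (at least 2559-fold). Of the 8 secretory genes, 7 were called higher in the lung, with a median of 10.59, or 9.98 with genes at 0 in a tissue set to their bound. The remaining member, the retinaldehyde dehydrogenase Aldh1a1, stood at 411, 352 and 212 TPM in the lungs and at 26.6, 23.9 and 56.1 TPM in the retinas (3.25, SE 0.48). Some secretory genes also varied among the lungs themselves: Reg3g, an antimicrobial lectin, stood at 69.7, 297 and 66.4 TPM, and Scgb3a1 at 498, 932 and 260 TPM.

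Alveolar type 1 genes followed at lower fold. Of 10 genes, 8 were called higher in the lung, with a median of 5.90. Ager, the type 1 cell receptor for advanced glycation end products, stood at 3589, 3587 and 3231 TPM in the lungs and 3.87, 5.56 and 3.82 TPM in the retinas (9.61, SE 0.18). Gprc5a, an orphan receptor, showed a still larger difference from a lower level (11.64, SE 0.48). Spock2, a matrix proteoglycan on the same list, overlapped between the tissues, at 195, 190 and 171 TPM in the lungs and 181, 194 and 144 TPM in the retinas.

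Multiciliated genes split. Of 8 tested, 5 were called higher in the lung, with Sec14l3 at 459, 383 and 265 TPM against 0.0231, 0.208 and 0.235 TPM the furthest apart (10.59, SE 0.52). Foxj1, the master factor of motile cilia, was higher in every lung but by less than 10-fold (2.87, SE 0.16). Dnah9, an outer arm dynein chain, was the exception, with 1.66, 2.04 and 1.08 TPM in the lungs and 13.4, 16.0 and 20.1 TPM in the retinas (-3.32, SE 0.30).

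Rod genes were among the largest differences on the retina side. All 17 rod phototransduction genes were called, with a median log2 difference of -10.46, and their summed level was 65511 to 79084 TPM in the retinas and 241 to 249 TPM in the lungs. Gnat1, the rod transducin alpha subunit, stood at 11638, 12500 and 10142 TPM in the retinas and 0.623, 0.708 and 0.597 TPM in the lungs (-13.91, SE 0.11). Pdc, phosducin, which binds the transducin beta and gamma subunits, stood at 2464, 2016 and 2106 TPM and was not counted in a lung, at least 14060-fold higher in the retina. A single member gave most of the lung sum: Gnb1, the beta subunit that rods share with many cells, stood at 226, 227 and 223 TPM in the lungs and 3570, 3677 and 3361 TPM in the retinas (-3.97, SE 0.04). Rgs9, which speeds the shutoff of transducin, was the next member by lung level, at 11.8, 12.4 and 10.4 TPM against 184, 298 and 319 TPM in the retinas.

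The outer segment genes, which build and maintain the stack of membrane discs, were called higher in the retina in 12 of 12 cases (median -8.44). Prph2, the disc rim tetraspanin, stood at 3221, 3070 and 2573 TPM in the retinas and at 0.0448, 0 and 0 TPM in the lungs (-14.67, SE 0.20). Prom1, which shapes membrane protrusions in many epithelia, had the smallest difference of the list, at 17.4, 20.4 and 20.3 TPM in the lungs against 327, 409 and 373 TPM in the retinas (-4.24, SE 0.12).

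Cone genes, from a cell far rarer than rods in the mouse, were also on the retina side. Of 10 cone genes, 9 were called higher in the retina, with a median of -9.40, or -9.67 with zeros at their bound. The cone opsins Opn1sw, at 418, 320 and 349 TPM, and Opn1mw, at 301, 346 and 301 TPM in the retinas, differed from lung levels of 0.237 to 0.258 TPM and 0. The remaining member, the gamma subunit Gngt2, stood at 23.4, 19.9 and 21.6 TPM in the lungs and 232, 151 and 133 TPM in the retinas (-2.95, SE 0.25).

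**Figure D2:**
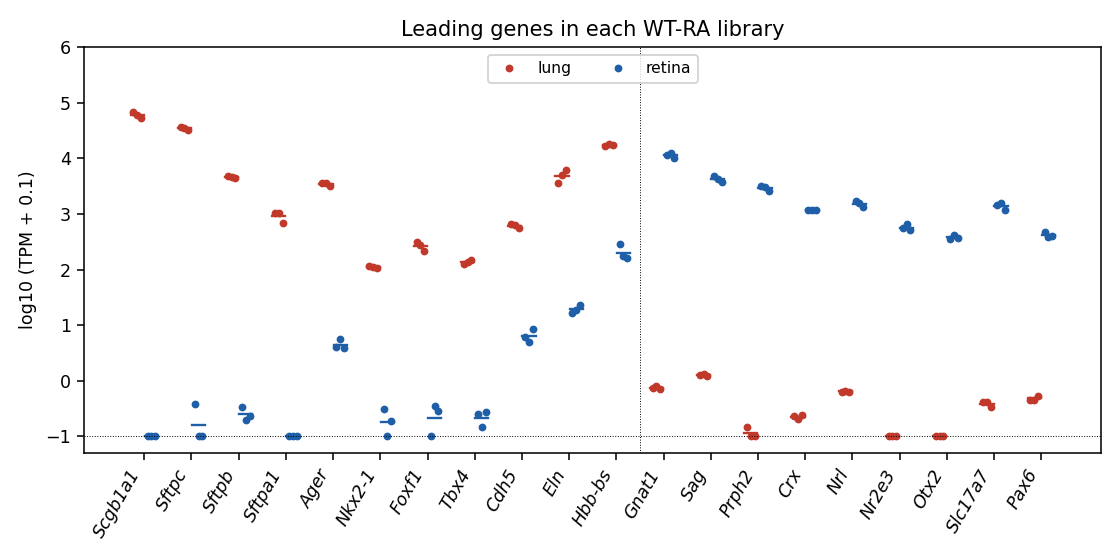
Level of 20 leading genes in each of the 6 WT-RA libraries as log10 (TPM + 0.1), with lung points in red, retina points in blue and a bar at the mean of 3. For every gene shown the 3 lungs and the 3 retinas do not overlap, and the points on the dotted line at -1 are libraries in which the transcript was not counted.

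Among the other largest differences, Rbp3, which carries retinoids between photoreceptors and pigment epithelium, stood at 1209, 1767 and 1330 TPM in the retinas and at 0, 0.0108 and 0.0104 TPM in the lungs (-13.69, SE 0.17). Sncb, beta-synuclein, was not counted in a lung (at least 6020-fold higher in the retina), and Inmt, an amine methyltransferase of lung fibroblasts, was not counted in a retina (at least 7789-fold higher in the lung).

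Transcription factors separated the tissues in both directions. On the lists used here, all 13 lung patterning factors were higher in the lung (median 7.59) and all 16 retina factors were higher in the retina (median -9.67). Nkx2-1, which specifies the lung epithelium, stood at 114, 111 and 108 TPM in the lungs and 0.203, 0 and 0.0864 TPM in the retinas (9.29, SE 0.46). The mesenchymal factors Tcf21 (11.17, SE 0.20), Foxf1 (10.28, SE 0.58) and Tbx4 (9.32, SE 0.29) differed by a like amount. Crx, the cone-rod homeobox factor, stood at 1171, 1165 and 1195 TPM in the retinas and 0.128, 0.105 and 0.142 TPM in the lungs (-12.36, SE 0.07). Nrl, the rod leucine zipper factor, stood at 1717, 1579 and 1328 TPM against 0.531, 0.547 and 0.530 TPM (-11.23, SE 0.11). Nr2e3 and Otx2 were not counted in a lung, and were at least 6451-fold and at least 4543-fold higher in the retina. Prox1, which marks amacrine, horizontal and lymphatic endothelial cells, stood at 1.40, 1.38 and 0.931 TPM in the lungs and 56.7, 62.7 and 59.8 TPM in the retinas (-5.50, SE 0.18), and it fell short of 10-fold on CPM as deposited, at -3.30.

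Promoter sequence was available for 11702 of the tested genes, as 250 bases before to 50 bases after each annotated start in RefSeq on GRCm38.p6. The letters TAATCC, read on both strands, are the core to which Crx and Otx2 bind in photoreceptor genes, and they stood in 7.06% of all 32851 promoters, in 8.55% of those of genes higher in the retina, in 6.13% of those of genes higher in the lung and in 5.60% of those of tested genes called in neither direction. Among the rod genes 6 of 11 promoters held them, among the outer segment genes 2 of 11, among the cone genes 1 of 7 and among the retina transcription factors 3 of 20. These counts are a description of the letters and not of binding. Upstream sequences, 5′ to 3′ on the gene's own strand, are shown for the factor itself (Crx, chr7:15879956-15880205, minus strand) and for a rod channel subunit (Cngb1, chr8:95306586-95306835, minus strand) and rod arrestin (Sag, chr1:87803430-87803679, plus strand), with TAATCC or its reverse complement GGATTA in capitals:
Crx: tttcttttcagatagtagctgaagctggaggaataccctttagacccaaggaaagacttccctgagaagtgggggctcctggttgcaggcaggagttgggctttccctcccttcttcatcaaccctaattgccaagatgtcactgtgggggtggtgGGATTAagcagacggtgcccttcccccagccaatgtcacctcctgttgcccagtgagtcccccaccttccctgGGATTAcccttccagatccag
Cngb1: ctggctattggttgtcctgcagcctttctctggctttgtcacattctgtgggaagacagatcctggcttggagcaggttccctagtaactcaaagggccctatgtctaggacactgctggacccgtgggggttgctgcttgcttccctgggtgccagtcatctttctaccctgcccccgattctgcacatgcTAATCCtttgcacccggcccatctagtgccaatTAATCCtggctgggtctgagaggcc
Sag: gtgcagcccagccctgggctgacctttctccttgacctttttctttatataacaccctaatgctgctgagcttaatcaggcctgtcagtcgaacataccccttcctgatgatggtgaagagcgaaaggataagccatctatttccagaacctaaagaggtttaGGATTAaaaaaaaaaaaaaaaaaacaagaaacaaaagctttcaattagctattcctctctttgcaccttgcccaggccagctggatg
Crx and Cngb1 held the letters at 2 places each and Sag at 1.

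For the lung the letters CTCAAG, the core recorded for Nkx2-1 in surfactant genes, were counted after the sequences had been seen. They stood in 15.9% of all promoters, in 16.5% of those of genes higher in the lung and in 12.2% of those of genes higher in the retina, and in 3 of 9 promoters of the type 2 list. Each word was counted separately on both strands, and none is the reverse complement of another. The sequences before Sftpb (chr6:72304360-72304609, plus strand) and Sftpa1 (chr14:41131538-41131787, plus strand) are shown with CTCAAG and the TATA box letters TATAAA in capitals:
Sftpb: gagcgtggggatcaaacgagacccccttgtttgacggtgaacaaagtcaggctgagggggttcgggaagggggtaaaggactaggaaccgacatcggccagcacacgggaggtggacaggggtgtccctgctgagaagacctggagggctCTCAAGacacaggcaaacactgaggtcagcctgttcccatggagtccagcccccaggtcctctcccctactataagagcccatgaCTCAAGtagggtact
Sftpa1: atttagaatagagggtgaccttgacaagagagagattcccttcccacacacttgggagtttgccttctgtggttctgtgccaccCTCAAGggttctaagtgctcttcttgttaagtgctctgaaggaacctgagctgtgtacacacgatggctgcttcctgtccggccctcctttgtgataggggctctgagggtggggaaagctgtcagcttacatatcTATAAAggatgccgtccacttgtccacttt
Promoters of both called sets were poorer in CpG than those of other tested genes. The ratio of observed to expected CpG had a median of 0.361 for genes higher in the lung, 0.541 for genes higher in the retina and 0.752 for those called in neither direction, and TATAAA stood in 13.3%, 10.0% and 6.79% of them. Over all promoters, tested or not, the median was 0.384 and TATAAA stood in 13.6%. Genes higher in the lung were near these values, and genes higher in the retina lay between them and the genes called in neither direction.

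Neurons behind the photoreceptors separated the tissues list by list. Of 10 bipolar genes 8 were called higher in the retina (median -8.01), of 12 amacrine and horizontal genes 11 (median -7.08), and of 10 ganglion cell genes 9 (median -6.41, or -6.67 with zeros at their bound). Trpm1, the channel that answers light in ON bipolar cells, stood at 148, 164 and 153 TPM in the retinas and 0.141, 0.0805 and 0.0862 TPM in the lungs (-9.59, SE 0.14). Slc32a1, the vesicular transporter of GABA and glycine in amacrine cells, stood at 108, 103 and 75 TPM in the retinas and was not counted in a lung, at least 1519-fold higher in the retina. Nefl, the light neurofilament chain of ganglion cell axons, stood at 307, 245 and 199 TPM against 0, 0.0228 and 0 TPM (-11.17, SE 0.21).

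A ganglion cell marker went the other way. Rbpms, an RNA-binding protein used to count ganglion cells in retinal sections, stood at 444, 446 and 427 TPM in the lungs and 49.4, 53.4 and 46.7 TPM in the retinas, with no overlap (3.14, SE 0.06).

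Synaptic genes were called higher in the retina in 12 of 14 cases (median -8.50). Slc17a7, which loads glutamate into vesicles, stood at 1432, 1587 and 1203 TPM in the retinas and 0.305, 0.305 and 0.233 TPM in the lungs (-11.85, SE 0.15). The complexins of ribbon synapses, Cplx4 (-11.03, SE 0.21) and Cplx3 (-11.10, SE 0.33), were as far apart. The members that were not called had higher lung levels: the vesicle protein Vamp2 stood at 129, 111 and 117 TPM in the lungs and 777, 957 and 752 TPM in the retinas (-2.79, SE 0.13), and Ctbp2, whose gene gives both a nuclear corepressor and the ribbon protein, at 48.8, 51.2 and 48.1 TPM and 167, 182 and 153 TPM (-1.76, SE 0.08).

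Mueller glia genes leaned to the retina, most of them by less than 10-fold. Of 10 genes, 8 were higher in every retina, against 49.5% of all tested genes, and 1 was higher in every lung. At 10-fold, 3 were called higher in the retina, against 10.2% of all tested genes (median -3.04). Rlbp1, which carries retinaldehyde for the visual cycle, stood at 511, 414 and 332 TPM in the retinas and 0.0568, 0.198 and 0 TPM in the lungs (-11.27, SE 0.49). The intermediate filament Vim was higher in the lung, at 978, 1101 and 1125 TPM against 233, 198 and 394 TPM (2.02, SE 0.31). Apoe, a lipid carrier, overlapped, at 912, 964 and 700 TPM in the lungs and 1131, 804 and 1036 TPM in the retinas.

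Lens and pigment epithelium genes mark tissues that lie next to the retina and were set apart. Crystallins and other lens genes summed to 220, 48024 and 128452 TPM in the 3 WT-RA retinas, and 19 of 24 were called higher in the retina with a median of -9.25 (-9.94 with zeros at their bound). The gamma crystallin Crygd stood at 14.3, 5615 and 14156 TPM in the retinas and at 0 in the lungs (SE of the log2 difference 3.12). Pigment epithelium and melanin genes moved in the same order at a lower level, at 232, 576 and 671 TPM in sum, and 7 of 10 tested were called higher in the retina (median -4.23). Rpe65, the visual cycle isomerase of the pigment epithelium, stood at 10.5, 33.9 and 30.5 TPM and was not counted in a lung. The rod sum was 78388, 79084 and 65511 TPM in the same libraries.

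Most retina calls did not need the lens-rich libraries. With retina replicate 1 alone, the one low in lens transcripts, 1479 of the 1574 retina calls outside the lens list were made again, and 12 of the 19 within it. Genes called higher in the retina that were at least 10-fold higher in retina replicate 3 than in replicate 1 numbered 19, and all 19 were on the lens list. In KO-RA, where replicate 3 held 8.17% lens transcripts and the others at most 0.0167%, the median of the lens list was -5.07, and in WT-O2 and KO-O2 it was -1.55 and -2.55.

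**Figure D3:**
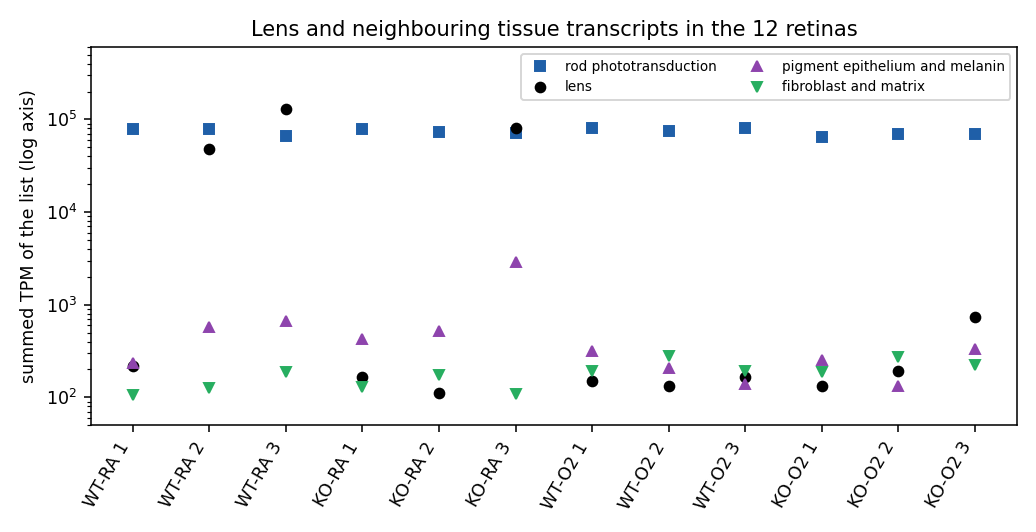
Summed level (TPM, log axis) of 4 gene lists in each of the 12 retinas, 3 per group: rod phototransduction, lens, pigment epithelium with melanin, and fibroblast with matrix. The rod sum keeps within 65059 to 81736 TPM, while the lens sum stands at 48024, 128452 and 81683 TPM in WT-RA replicates 2 and 3 and KO-RA replicate 3 and at most at 729 TPM elsewhere.

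Connective tissue genes were far higher in the lung on the list used here, which does not hold every collagen. All 16 of its fibroblast, collagen and elastic fiber genes were called higher in the lung, with a median of 5.80 and a sum of 18565 to 21680 TPM in the lungs and 107 to 189 TPM in the retinas. Eln, the elastin that gives alveolar septa their recoil, stood at 3656, 4944 and 6169 TPM in the lungs and 16.4, 18.9 and 22.5 TPM in the retinas (7.97, SE 0.25). Mfap4, a protein of elastic fibers, stood at 9825, 9800 and 11128 TPM in the lungs and 2.93, 1.14 and 31.8 TPM in the retinas (11.02, SE 1.40), so that replicate 3, with the most lens transcripts, lay well above the other two. Dcn (5.67, SE 1.60) and Lum (3.69, SE 1.38), proteoglycans that bind collagen, were also highest in replicate 3, at 8.87 and 3.39 TPM against at most 0.747 and 0.134 TPM. Whether eye tissue outside the retina contributed those reads was not tested.

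Endothelial genes stood higher in the lung, but not evenly. Of 15 endothelial genes 11 were called higher in the lung (median 4.41), and of 12 genes of lung capillaries 10 (median 5.64). The endothelial genes summed to 3869 to 4026 TPM in the lungs and 190 to 217 TPM in the retinas. Cdh5, the cadherin of endothelial junctions, stood at 646, 634 and 558 TPM in the lungs and 5.94, 4.95 and 8.34 TPM in the retinas (6.59, SE 0.23). Among the capillary genes, Tmem100 (10.58, SE 0.59) and Gpihbp1, which holds lipoprotein lipase on the capillary wall (10.40, SE 0.96), reached differences as large as those of epithelial genes, with retina levels below 1 TPM.

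The VEGF receptors Kdr and Flt1 had the smallest log2 differences on the endothelial list. Kdr, the main receptor of VEGF-A, had a mean of 99.8 TPM ± 7.32 (SD, n = 3) in the lungs and stood at 34.6, 32.5 and 30.9 TPM in the retinas (1.61, SE 0.08), and the decoy receptor Flt1 at 44.3, 40.6 and 30.5 TPM and 18, 18.8 and 15.4 TPM (1.13, SE 0.18). Neither overlapped and neither reached 10-fold. The ligand Vegfa stood at 2673, 2634 and 2038 TPM in the lungs and 232, 220 and 213 TPM in the retinas (3.45, SE 0.13), a call that ended after correction for length (2.92) and on CPM as deposited (1.71). Hif1a, the hypoxia-inducible factor subunit, was higher in every retina, at 242, 253 and 248 TPM against 30.5, 28.3 and 27.3 TPM (-3.11, SE 0.05), whereas its relative Epas1 was higher in every lung, at 712, 617 and 532 TPM against 54.1, 70.5 and 64.0 TPM (3.30, SE 0.16). In all, 6 of the 16 VEGF and hypoxia genes were called higher in the lung, against 10.2% of all tested genes, and 0 in the retina (median 2.20).

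The genes of the blood-retina barrier and Norrin signaling fell on both sides. Of 12 genes 3 were called higher in the retina, against 10.2% of all tested genes. They were the glucose transporter Slc2a1, at 222, 197 and 215 TPM against 12.2, 10.1 and 8.86 TPM (-4.34, SE 0.14), and the organic anion transporters Slco1a4 (-6.46, SE 0.52) and Slco1c1 (-4.29, SE 0.21). Ndp, which encodes Norrin itself, was higher in every retina (-2.62, SE 0.58), while its receptor Fzd4 (2.94, SE 0.23) and the coreceptors Lrp5 (3.27, SE 0.08) and Tspan12 (2.54, SE 0.16) were higher in every lung. The list median of 1.09 turned to -0.11 with the longest transcript of each gene in place of the principal one, so no direction is given for the list as a whole.

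Mural cells gave 6 of 10 genes called higher in the lung (median 4.11). Tagln, of contractile smooth muscle, stood at 276, 305 and 399 TPM in the lungs and 10.6, 11.8 and 15.9 TPM in the retinas (4.67, SE 0.24). The pericyte gene Rgs5 was higher in every retina, at 54.4, 47.7 and 58.2 TPM against 20.7, 25.2 and 29.9 TPM (-1.09, SE 0.17), and the pericyte channel subunit Abcc9 overlapped, at 4.00, 3.88 and 4.32 TPM in the lungs and 4.43, 4.24 and 4.05 TPM in the retinas. The receptor Pdgfrb, which pericytes also use, was 10-fold or more higher in the lung (4.18, SE 0.11).

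Immune cell genes stood mainly on the lung side. Of 10 alveolar macrophage genes 8 were called higher in the lung (median 5.92), of 9 tested lymphocyte genes 7 (median 4.40), of 7 MHC class II genes 5 (median 7.08) and of 9 tested neutrophil genes 6 (median 4.5), with 0 called higher in the retina. Chil3, a chitinase-like protein of alveolar macrophages, stood at 456, 773 and 306 TPM in the lungs and was not counted in the retinas, at least 3913-fold higher in the lung. Cd74, the invariant chain that escorts MHC class II, stood at 1176, 1310 and 1248 TPM in the lungs and 0.378, 1.17 and 3.47 TPM in the retinas (9.91, SE 0.84).

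Genes known as microglia markers lay on both sides. Of 9 tested, 2 were called higher in the lung, against 10.2% of all tested genes, and 0 in the retina. The 2 were Tmem119, at 94.1, 111 and 107 TPM against 2.05, 0.942 and 0.960 TPM (6.28, SE 0.35), and Tyrobp (4.66, SE 0.21). The purinergic receptor P2ry12, at 8.60, 2.50 and 5.06 TPM in the retinas against 1.80, 1.77 and 0.923 TPM in the lungs (-1.67, SE 0.58), and Siglech (-0.96, SE 0.21) were higher in every retina, by less than 10-fold. Tyrobp fell short of 10-fold on CPM as deposited, at 2.61.

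Blood itself was unequal. The 7 erythroid genes were all called higher in the lung (median 6.01) and made up 5.75% to 6.40% of lung TPM and 0.0604% to 0.0962% of retina TPM. Hbb-bs, an adult beta globin, stood at 16753, 18204 and 17578 TPM in the lungs and 284, 177 and 163 TPM in the retinas (6.44, SE 0.25). It shares reads with the near-identical Hbb-bt, as Hba-a1 does with Hba-a2, so their split is uncertain. Heart muscle genes were also present in the lungs, where 7 of 8 were called higher (median 5.25): the atrial myosin light chain Myl7 stood at 116, 149 and 53.1 TPM in the lungs and 0.426, 0.152 and 1.00 TPM in the retinas. The mouse pulmonary veins carry cardiac muscle, and whether heart tissue was also collected was not tested. Of 5 skeletal muscle genes tested, 1 was called for the lung and 2 were for the retina, against 10.2% of all tested genes in each direction. Of 8 cornea and ciliary epithelium genes 2 reached the test, and 2 were called higher in the lung. The list summed to 7.67 to 12.4 TPM in the retinas, with a median of -0.54 (-0.15 with zeros at their bound). Its keratins Krt12, Krt5 and Krt14 did not reach 1 TPM in a retina, the highest being Krt12 at 0.836 TPM. Of 8 thymus genes 2 reached the test and 0 were called, and of 3 liver genes tested only Ttr, which the pigment epithelium also makes, was called.

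Glycolytic genes stood higher in the retina as a group. All 17 tested genes of glycolysis and lactate transport were higher in every retina than in any lung, against 49.5% of all tested genes, with a median of -3.18 and 7 of 17 past 10-fold. Their sum was 1534 to 1710 TPM in the lungs and 12391 to 16882 TPM in the retinas. Aldoa, muscle-type aldolase, stood at 364, 399 and 379 TPM in the lungs and 4334, 3278 and 3056 TPM in the retinas (-3.21, SE 0.16). The lactate transporters Slc16a1 (-3.93, SE 0.25) and Slc16a3 (-4.13, SE 0.05) and the enzymes Eno1 (-3.81, SE 0.20), Pfkp (-4.06, SE 0.09) and Hk2 (-4.04, SE 0.24) were called. On CPM as deposited Slc16a1 stood at -2.52, Slc16a3 at -2.76, Pfkp at -2.73 and Hk2 at -2.32, below 10-fold, and the list median was -2.45. Gapdh, often taken as a reference, stood at 867, 959 and 1002 TPM in the lungs and 7706, 5592 and 5377 TPM in the retinas (-2.71, SE 0.18), and Actb at 2380, 2605 and 2629 TPM and 579, 484 and 500 TPM (2.29, SE 0.09), so the reference genes themselves went in opposite directions.

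Mitochondrial genes lay closer to even between the tissues than the glycolytic genes. None of the 11 tested mitochondrially encoded genes was called, with a median of -0.39. Among 18 nuclear genes of the respiratory chain 1 was called for the lung and 2 were for the retina, with a median of -0.40. Of all tested genes 10.2% were called in each direction, so these counts do not set the list apart. Without the 10-fold condition, 7 of the 11 and 10 of the 18 were higher in every retina, against 49.5% of all tested genes. In every lung 2 and 3 were higher. The medians of the 2 lists have no stable sign or size. Scaling to housekeeping genes turned them to 0.22 and 0.21, and on CPM as deposited they were -1.24 and -1.55. The called members were isoforms or genes with close copies: Cox6a2, the heart and muscle form, stood at 55.3, 58.6 and 32.2 TPM in the lungs and 1.05, 1.36 and 1.29 TPM in the retinas (5.15, SE 0.29), while the common form Cox6a1 stood at 9.63, 7.04 and 6.18 TPM in the lungs and 533, 403 and 388 TPM in the retinas (-5.85, SE 0.24). The low lung level of Cox6a1 and of Atp5g1 (-4.06, SE 0.15) is uncertain because processed copies of both genes can share their reads, and Atp5g1 fell to -2.54 on CPM as deposited.

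Some related genes with the same reaction differed in their balance between the tissues. The sodium pump beta subunits Atp1b3 (1.24, SE 0.13) and Atp1b2 (-5.70, SE 0.26), the aldolases Aldoa and Aldoc (-7.26, SE 0.17), and the enolases Eno1 and Eno2 (-7.74, SE 0.15) were such pairs. These pairs were picked by hand as examples that differ, and each is written with the member nearer the lung first. They give no share of such pairs among all related genes. The epithelial sodium channel subunits Scnn1a (8.70, SE 0.40), Scnn1b (8.65, SE 0.43) and Scnn1g (9.00, SE 0.35), which clear alveolar fluid, were called higher in the lung with Aqp5, 4 of the 8 fluid channel genes.

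**Figure D4:**
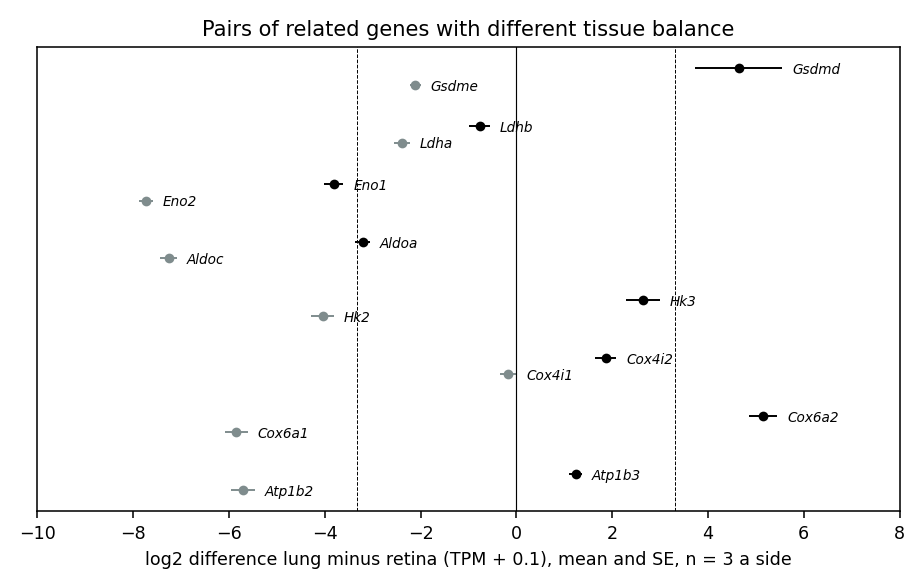
Log2 difference (lung minus retina, TPM + 0.1) with its SE, n = 3 a side, for 8 pairs of related genes, 1 pair per row, black for the member nearer the lung and gray for the other, with dashed lines at 10-fold. The pairs were picked by hand as examples that differ. The pump subunits Atp1b3 at 1.24 and Atp1b2 at -5.70 lie on opposite sides of 0, and so do Cox6a2 at 5.15 and Cox6a1 at -5.85. The low lung level of Cox6a1 is uncertain because processed copies can share its reads.

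The pyroptosis genes, the pathway targeted in the knockout line, stood mostly on the lung side. Gsdmd, the pore-forming gasdermin cut by inflammatory caspases, stood at 41.0, 43.4 and 38.8 TPM in the WT-RA lungs and 3.69, 0.377 and 2.36 TPM in the WT-RA retinas (4.64, SE 0.91). In the KO-RA mice, which carry the deletion in this gene, its mean was 24.3 TPM in the lungs and 0.822 TPM in the retinas. Casp1 (4.35, SE 0.35), Casp4 (3.94, SE 0.60) and Il1b (4.08, SE 0.99) were also called higher in the lung, at lung levels of 3.31 to 7.89 TPM. So 4 of the 11 tested genes were called higher in the lung, against 10.2% of all tested genes, and 0 in the retina. Without the 10-fold condition, 6 were higher in every lung, against 33.9% of all tested genes, and 1 was higher in every retina (list median 1.81). Gsdme, a gasdermin cut by caspase-3, was higher in every retina, at 10.7, 11.8 and 10.1 TPM against 2.66, 2.56 and 2.14 TPM (-2.11, SE 0.12). Il18, at 13.6, 12.9 and 12.9 TPM in the lungs and 11.1, 16.3 and 14.1 TPM in the retinas, overlapped. The vasoconstrictor Edn1 (3.47, SE 0.10), Birc3 (4.78, SE 0.19) and Birc5 (3.77, SE 0.42) were called higher in the lung, Birc5 falling to 2.73 on CPM as deposited, while Mif (-2.56, SE 0.22) was higher in every retina.

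Antioxidant and detoxifying genes lay on both sides. Of 17 genes 3 were called higher in the lung, against 10.2% of all tested genes, and 0 in the retina: Gpx3, the secreted glutathione peroxidase, at 1410, 1132 and 636 TPM against 10.3, 9.75 and 30.6 TPM (6.10, SE 0.64), Sod3, the extracellular superoxide dismutase, at 165, 167 and 185 TPM against 2.72, 3.23 and 5.25 TPM (5.54, SE 0.28), and the aldehyde oxidase Aox3 (6.57, SE 0.41). Sod2, the mitochondrial form, was higher in every retina, at 141, 112 and 88.4 TPM against 18.8, 19.4 and 17.9 TPM (-2.57, SE 0.20). Hmox1, which degrades heme, ranged over the retinas from 3.92 to 58.8 and 137 TPM, in the order of their lens transcripts, and overlapped the lungs at 39.8, 50.7 and 51.8 TPM.

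Proliferation genes stood higher in the lung with 1 exception. Of 11 tested proliferation genes 4 were called higher in the lung, against 10.2% of all tested genes (median 2.57). Mki67, a marker of cycling cells, stood at 7.89, 10.1 and 11.0 TPM in the lungs and 0.0645, 0.0244 and 0.294 TPM in the retinas (5.59, SE 0.52). Ccna2, the S phase cyclin, was the exception and was higher in every retina (-0.89, SE 0.26). The core clock genes had no member past 10-fold (median -1.0), and 9 of 12 were higher in every retina, against 49.5% of all tested genes. The clock median was -0.11 on CPM as deposited and -0.38 with housekeeping scaling.

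Other genes overlapped between the tissues. Among those with a mean of at least 100 TPM in both, the smallest differences were those of the peroxiredoxin Prdx5, at 142, 162 and 180 TPM in the lungs and 192, 138 and 156 TPM in the retinas, the splicing kinase Clk1, the endoplasmic reticulum chaperone Hspa5, the cold-inducible RNA-binding protein Rbm3 and Tmem259, with log2 differences between -0.0049 and 0.0013 (SE 0.06 to 0.17). Of 15 housekeeping genes 1 was called, Tbp, at 4.33, 4.59 and 3.75 TPM in the lungs and 74.7, 84.7 and 88.0 TPM in the retinas (-4.26, SE 0.11), a call that ended after correction for length (-2.72) and on CPM as deposited (-1.28).

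The genes of the 2 sets also differed in length. Transcripts had a median length of 2090 bases among genes higher in the lung, 3390 bases among genes higher in the retina and 2848 bases among all tested genes, in the direction of the length trend given above. X-linked genes made up 1.93% of the lung set, 4.39% of the retina set and 3.31% of tested genes. The 4 Y-linked genes of the sex list were all called higher in the retina (median -6.34), with Eif2s3y at 0.202, 0.168 and 0.417 TPM in the lungs and 78.7, 97.7 and 64.5 TPM in the retinas.

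The same comparison in GSDMD-KO mice in room air shared most of its calls with that in WT-RA mice. Of 15899 genes tested, 1541 (9.69%) were higher in the lung and 1646 (10.4%) in the retina. Of the WT-RA calls, 1390 of 1605 lung genes (86.6%) and 1476 of 1593 retina genes (92.7%) were called again, and 90.2% of the KO-RA lung calls and 89.7% of the KO-RA retina calls were WT-RA calls. The direction differed for 2 lung and 2 retina genes. These were the pseudogene Gm2810 and the gluconeogenic enzyme Fbp1 on the lung side, and the pseudogene Gm13835 and Gm14288 on the retina side, and Fbp1 stood at 4.38, 6.38 and 3.48 TPM in the WT-RA lungs and at a mean of 0.460 TPM in the KO-RA lungs. The Y-linked sum in the KO-RA lungs was near that of the WT-RA lungs in 1 library and at 52.1 and 79.0 TPM in the others, and the Y-linked list had a median of -3.18.

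In hyperoxia the retina side repeated more fully than the lung side. In WT-O2, 1161 of 15844 genes (7.33%) were higher in the lung and 1683 (10.6%) in the retina. In KO-O2 these were 1183 of 15776 (7.5%) and 1758 (11.1%). Of the WT-RA lung calls, 947 (59.0%) came again in WT-O2 and 990 (61.7%) in KO-O2, against 1371 (86.1%) and 1403 (88.1%) of the retina calls, and 818 lung and 1298 retina calls were made in all 3 other groups. The lung genes moved more in the retinas than in the lungs: relative to WT-RA, their median log2 level was 0.66 higher in WT-O2 retinas and 0.45 higher in KO-O2 retinas, and it was lower by 0.16 and 0.30 in the lungs of these groups (medians -0.16 and -0.30). In KO-RA the shifts were -0.02 in the lung and 0.07 in the retina. These levels share the WT-RA libraries with the calls, so the shifts are given as a description and were not tested.

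Among the lists whose medians moved in hyperoxia were those of vessels and blood. The median of the endothelial list was 4.41 in WT-RA, 4.24 in KO-RA, 2.65 in WT-O2 and 2.92 in KO-O2, and that of lung capillaries 5.64, 4.94, 2.94 and 2.94. The endothelial sum was 3106 to 3469 TPM in the WT-O2 lungs and 404 to 486 TPM in the WT-O2 retinas. The erythroid median was 6.01, 6.47, 3.20 and 6.98 in the same order of groups, and the lymphocyte median 4.40, 4.42, 2.60 and 2.97. The rod medians were -10.46, -10.75, -10.82 and -10.58, and the lung patterning factors 7.59, 7.54, 7.49 and 7.57. Hyperoxia was given at different ages and oxygen levels in the 2 tissues, so its part in a difference between them cannot be told apart from tissue and age.

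**Figure D5:**
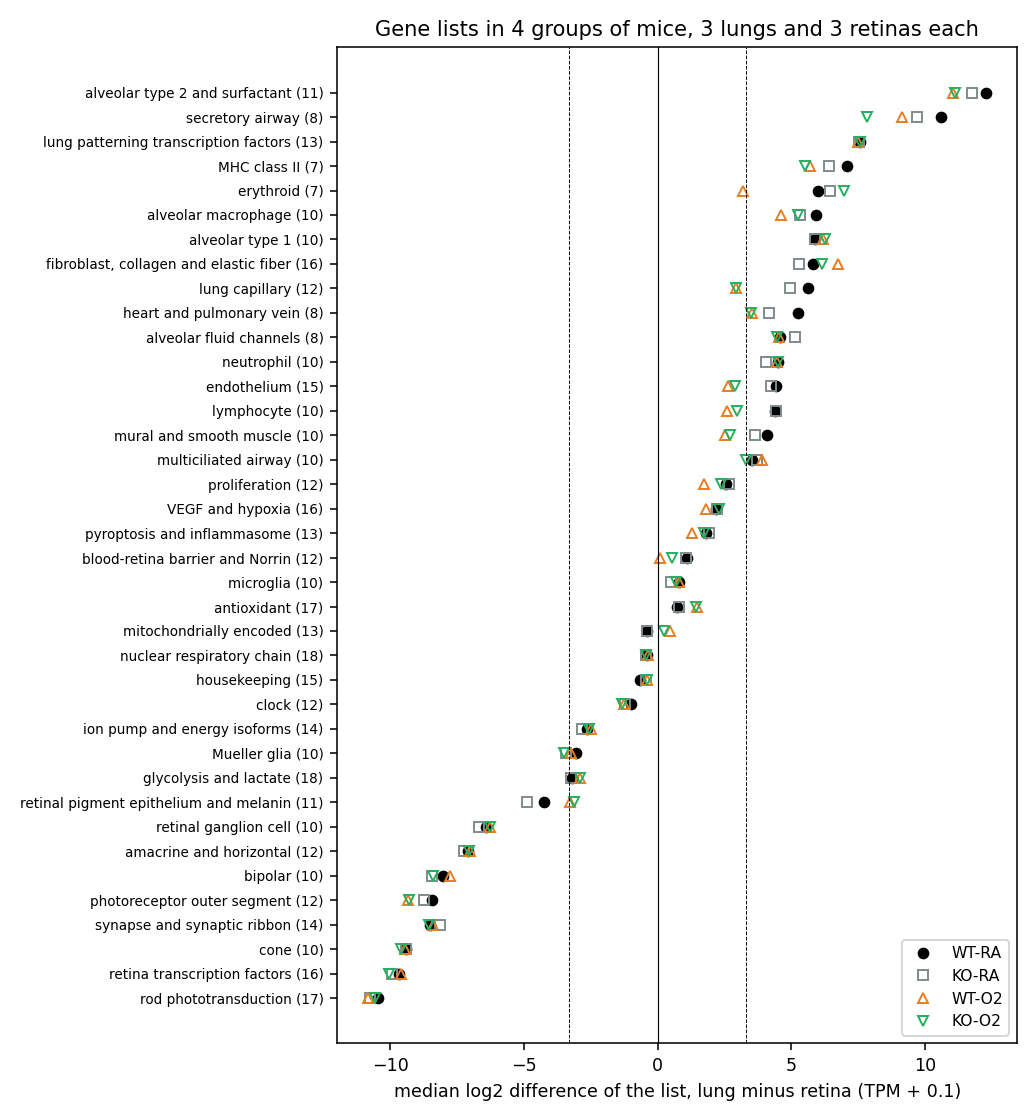
Median log2 difference (lung minus retina, TPM + 0.1) of each gene list shown, with the number of its genes in both tables in parentheses, in WT-RA (filled circles), KO-RA, WT-O2 and KO-O2 mice, 3 lungs and 3 retinas each, with dashed lines at 10-fold. The lens, sex, thymus, liver, skeletal muscle, and cornea and ciliary epithelium lists and a list of genes named in the study are left out. The lung patterning factors stay between 7.49 and 7.59 and the rod genes between -10.82 and -10.46 in all 4 groups, while the endothelial median moves from 4.41 in WT-RA to 2.65 in WT-O2 and the erythroid median from 6.01 to 3.20.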

How the data were processed

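RNA was extracted from whole lungs and retinas and sequenced by BGI as paired reads. Transcripts were quantified with kallisto and collapsed to genes with tximport, and the values that the authors deposited are expected counts (estimated counts), with lung and retina in separate tables. The submitters' notes name FastQC, kallisto and the mm10 build, whereas the study's methods name a GRCm39 annotation, so the build of the counts is uncertain. Versions of these tools are not given in the sources used here. The 2 tables hold values on different scales. Among low values of genes with 1 transcript, 72.6% were whole in the lung, whereas 8.05% were in the retina, where 68.0% to 75.2% per library were whole multiples of a step that falls with transcript length, within a tolerance of 0.04. Retina values were therefore read as abundances scaled to the library, and lung values were divided by principal transcript length less 185 bases (GRCm38 annotation) to give TPM in both.

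This departs from CPM as deposited, which had been planned and is given as an alternative. Calls needed a 10-fold difference of geometric means of TPM + 0.1 and no overlap of 3 against 3 libraries, among genes of at least 1 TPM on average and 300 bases. Bounds for genes at 0 used a floor of 3 reads per library and cover counting error only. Library totals lay between 27063700 and 29210900 counts. At a given TPM shorter transcripts rest on fewer reads. Fbp1, of 1479 bases, had 336 reads over the 3 WT-RA lungs at a mean of 4.75 TPM. The libraries are separate mice, numbered in accession order. The members and the 45 gene lists were chosen with earlier results of these data known, so the lists are described by counts and medians beside all tested genes. Named genes are list members, the 15 largest differences per direction at 10 TPM or more, the 10 most abundant genes per tissue, the genes at 0 in the other tissue with the highest mean, the 5 abundant genes with the smallest difference, and genes whose direction was not repeated in KO-RA. Not every gene of that rule is reported. Alternatives covered scaling (edgeR 4.0.16 TMM, DESeq2 1.42.0 size factors, housekeeping genes), pseudocounts, filters, fold, transcript length and each library left out. The scripts were checked on simulated data. Python 3.11.15, pandas 2.3.3, numpy 2.4.6, matplotlib 3.10.9 and R 4.3.3 were used.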

Additional observations from a re-analysis of the deposited data

Results flagged for a closer look

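Bean1, Slc5a12, Esm1, Ano3, Gm45837 and Wfdc6a had the opposite direction in a hyperoxia group, in each case with every lung on one side of every retina in both groups, and the difference between the groups was not tested. In WT-O2 the log2 difference (lung minus retina) was 1.78 for Bean1 against -4.25 in WT-RA, 1.35 for the ion channel relative Ano3 against -4.67, -0.64 for the endothelial tip cell gene Esm1 against 4.89, and -0.82 for the lactate transporter Slc5a12 against 3.59. Bean1 stood at 0.226, 0.468 and 0.182 TPM in the WT-RA lungs and at 15.3, 18.5 and 27.9 TPM in the WT-O2 lungs, while its retina levels lay between 5.14 and 7.84 TPM in both groups. Esm1 stood at 0.151, 0.0634 and 0.365 TPM in the WT-RA retinas and at 5.83, 7.70 and 5.07 TPM in the WT-O2 retinas. In KO-O2 the difference was 1.09 for Ano3, -0.81 for Gm45837 against 3.88, and -1.27 for Wfdc6a against 5.57. No gene of this kind was found in KO-RA.

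Genes listed in a single table entered no comparison. Of the 292 found only in the lung table, 68 were above 3 in every WT-RA lung, among them Tug1, Ifi30 and Cct6a. Of the 778 found only in the retina table, 322 were above 3 in every WT-RA retina, among them Tusc3. The threshold was set on deposited values, read as reads in the lung and as scaled abundances in the retina. The 68 and the 322 therefore cannot be set against each other. All 292 together made up 0.123% to 0.127% of the lung totals and all 778 together 0.675% to 0.806% of the retina totals, on the same unlike scales.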

How the results depend on the processing

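The calls were recomputed under 27 other settings, and the lung and retina counts stayed within 1.5 times the main ones in 48 of 54 cases. They moved with a pseudocount of 1 (878 lung, 977 retina), a 4-fold threshold (2732 and 2804) and a 32-fold threshold (637 and 842). TMM gave 1878 and 1398 genes, DESeq2 size factors 1909 and 1385, CPM as deposited 2193 and 1455 (60.1% on the lung side), and leaving out each library in turn 1564 to 1666 and 1557 to 1633. The TPM scale was adopted after seeing the data in place of the planned CPM, and CPM as deposited, the other transcript lengths, the lens list left out and no minimum length were then added as alternatives. CPM made 85.9% of the lung and 75.7% of the retina calls again. Among all WT-RA calls the direction was reversed for 10 lung and 5 retina genes in WT-O2, 10 and 6 in KO-O2, 2 and 2 in KO-RA, and 1 retina gene on CPM. For the 539 genes followed under each setting, 10 values were reversed. In KO-O2 these were the Y-linked genes Kdm5d (1.01), Uty (1.58), Ddx3y (4.34) and Eif2s3y (4.53), with their list median at 2.96. In WT-O2 they were Cryba4 (1.27) and Gm14288 (2.33), and in KO-RA Fbp1 (-0.14), Gm2810 (-0.25), Gm13835 (1.80) and Gm14288 (0.21). The Y-linked sum was 57.7 to 83.8 TPM in the KO-O2 lungs and 2.33 to 114 TPM in the KO-O2 retinas. The lens sum was 133 to 167 TPM in the WT-O2 retinas, against 220 to 128452 TPM in the WT-RA retinas. The cause of the reversals was not tested. No paired analysis was possible because the replicate numbers follow accession order and the 2 tissues came from different mice. Short transcripts near 1 TPM rest on fewer reads than long ones, and a transcript at 0 may lie below the depth.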

Other observations

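Gene families chosen by symbol after values had been seen also divided between the tissues, and they are given as counts, beside 10.2% of all tested genes called in each direction. All 14 tested Hox genes were called higher in the lung (median log2 difference 6.82). Of 21 chemokine genes 12 were, with Cxcl15 at 12.29 and the lymphatic chemokine Ccl21a at 10.45, and of 11 claudins 5, with Cldn18, the claudin of alveolar junctions, at 10.57. Of 29 cytochrome P450 genes 8 were called higher in the lung, led by Cyp2f2 at 12.22, and 2 in the retina, Cyp46a1 at -4.35 and Cyp26a1 at -3.61. Collagens went both ways, with 15 of 38 called higher in the lung and 5 in the retina, all 5 of them genes of cartilage and vitreous fibrils: Col9a1 at -8.32, Col2a1 at -6.79, Col11a1 at -5.19, Col9a3 at -4.76 and Col9a2 at -3.86.

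Channels and receptors of neurons lay on the retina side. Of 71 potassium channel genes 35 were called higher in the retina and 7 in the lung, with the photoreceptor subunit Kcnv2 at -10.66 and Kcnj14 at -10.15. Of 21 GABA and glycine receptor genes 19 were called higher in the retina, with Gabrr1 at -9.30 among them, and 1 in the lung, Gabrp at 7.25. Of 23 glutamate receptor genes 15 were called, all in the retina. By contrast, 31 of 37 proteasome genes lay within 2-fold, against 40.6% of all tested genes, and the 2 called higher in the lung, Psmb9 at 4.42 and Psmb8 at 3.74, encode subunits of the immunoproteasome. Of 336 zinc finger genes 5 were called higher in the lung and 6 in the retina, below the 10.2% of all tested genes.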
